A study of Mus musculus with 4 samples.

Results

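The genes described here were 41 members of the Wnt signalling pathway in mouse, from the 19 Wnt ligands through their receptors to the transcription factors in the nucleus. They were chosen by name from the GENCODE annotation of GRCm38 (mm10), out of 21938 protein-coding genes, by a rule that used no measured value. The list was drawn up with earlier results of these data known, however, so the choice was not blind. A methylated region was assigned to a gene when any of its bases fell within the gene or within 2 kb before its start, and 243 of the 186169 regions in the genome were assigned in this way. No region was shared between 2 of these genes.

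The libraries came from islets of C57BL/6 mice at 8 weeks of age, 2 from WT (Raptor lox/lox) and 2 from βRapKO (Raptor lox/lox; RipCre) animals. Both genotypes carried the floxed Raptor alleles, and only βRapKO carried a Cre transgene under the promoter of the rat insulin gene, so that Raptor is deleted in insulin-expressing cells. The labels give the strain as C57BL/6, while by the study's methods the Cre line was of mixed C57BL/6J:129/SvJ background. Raptor is an essential part of mTORC1, the kinase complex that couples growth to nutrients, and the question was whether its loss in beta cells alters DNA methylation. In MeDIP-seq, the assay used, fragments pulled down by an antibody against methylated cytosine are sequenced. Whole islets also hold alpha, delta, endothelial and other cells that do not express the Cre, so a change in beta cells and a change in the mixture of cells cannot be told apart. The labels do not say that the libraries came from separate animals, and p-values therefore measure the spread between these libraries.

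In the canonical branch of the pathway, a secreted Wnt protein binds a Frizzled receptor and an LRP5 or LRP6 co-receptor, which stops the destruction of β-catenin. β-catenin then enters the nucleus and acts with factors of the TCF/LEF family. In another branch, Wnt5a and related ligands act through Frizzled, ROR1 and ROR2 without β-catenin. Wnt signals take part in the development of the pancreas, and TCF7L2 is known from human genetics as a gene of type 2 diabetes risk.

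The 4 libraries held between 25585533 and 31330751 tags after removal of duplicates, and WT replicate 2 was the deepest, with 151093 peaks against 117638 to 121186 in the other libraries. These libraries hold no RNA, and the study's expression arrays were not analysed here, so the identity of the tissue was looked at only through methylation. None of 9 islet markers, Ins1, Iapp and Pdx1 among them, had a region in the promoter window, from 2 kb before to 500 bp after the gene start. Only 25.0% of all protein-coding genes had one, and only 3 of the 9 islet markers had any region. Among markers of other cell types, 1 of 6 acinar, 1 of 2 duct, 1 of 2 immune, 2 of 2 endothelial and 0 of 2 mesenchymal genes had one, counts too small to describe the mixture of cells.

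MeDIP enriches DNA by its methylated CpG sites, and short windows of the regions on which the results below turn are given first, as the 200 bases of the region with the most CpG sites outside UTRs. They were read from the GRCm38 reference on the strand of the gene, with each CG dinucleotide in capitals. The Ctnnb1 window, chr9:120929693-120929892 on the plus strand, lies in the region at the annotated start of the gene of β-catenin and holds 8 CpG sites. The Lrp5 window, chr19:3650834-3651033 on the minus strand, lies in intron 3, in the region with the lowest log2 fold change, and holds 6. The Ror1 window, chr4:100204552-100204751 on the plus strand, lies in intron 1, in the other region past 1.5-fold, and holds 9. The Axin2 window, chr11:108947860-108948059 on the plus strand, lies in intron 10, in the region with the smallest p, and holds 10. The Tcf7l2 window, chr19:55791044-55791243 on the plus strand, comes from a region of intron 3 called in WT only and holds 6. The Ror2 window, chr13:53264778-53264977 on the minus strand, comes from a region of intron 1 called in βRapKO only and holds 6. The Fzd7 window, chr1:59483738-59483937 on the plus strand, is coding sequence from the region with the densest CpG sites and holds 19.
Ctnnb1: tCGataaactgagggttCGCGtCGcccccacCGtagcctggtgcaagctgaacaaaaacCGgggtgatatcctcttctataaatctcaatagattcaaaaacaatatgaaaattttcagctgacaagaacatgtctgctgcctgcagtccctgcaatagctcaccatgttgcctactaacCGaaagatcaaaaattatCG
Lrp5: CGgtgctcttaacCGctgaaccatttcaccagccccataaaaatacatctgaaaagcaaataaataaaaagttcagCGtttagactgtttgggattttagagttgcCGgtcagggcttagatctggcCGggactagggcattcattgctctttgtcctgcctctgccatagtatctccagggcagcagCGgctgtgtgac
Ror1: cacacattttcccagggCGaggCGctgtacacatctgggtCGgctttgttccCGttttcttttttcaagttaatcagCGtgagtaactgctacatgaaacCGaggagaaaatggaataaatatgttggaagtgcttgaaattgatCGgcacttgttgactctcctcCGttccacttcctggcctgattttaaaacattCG
Axin2: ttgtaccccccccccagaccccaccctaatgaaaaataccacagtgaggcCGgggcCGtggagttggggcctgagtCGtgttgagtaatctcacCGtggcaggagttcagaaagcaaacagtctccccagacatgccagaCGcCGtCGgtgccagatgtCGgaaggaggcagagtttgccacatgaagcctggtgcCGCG
Tcf7l2: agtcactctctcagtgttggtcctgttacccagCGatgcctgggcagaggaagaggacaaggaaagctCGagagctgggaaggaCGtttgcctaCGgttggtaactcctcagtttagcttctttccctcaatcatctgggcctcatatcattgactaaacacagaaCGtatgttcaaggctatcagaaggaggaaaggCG
Ror2: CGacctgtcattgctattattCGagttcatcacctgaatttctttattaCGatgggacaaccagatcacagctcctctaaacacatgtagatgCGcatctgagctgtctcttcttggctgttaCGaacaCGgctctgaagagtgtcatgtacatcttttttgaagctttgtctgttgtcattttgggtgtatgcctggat
Fzd7: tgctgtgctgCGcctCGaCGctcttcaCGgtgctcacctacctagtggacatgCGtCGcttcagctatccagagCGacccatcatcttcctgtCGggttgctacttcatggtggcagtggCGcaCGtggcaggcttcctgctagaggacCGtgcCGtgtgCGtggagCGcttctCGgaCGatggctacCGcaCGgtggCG

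Methylated regions were found at 37 of the 41 Wnt genes, a share of 90.2% against 77.7% of all protein-coding genes. At 31 genes at least 1 region had a peak in all 4 libraries. Wnt2, Wnt6, Wnt8a, Wnt8b, Wnt10b and Dkk3 had regions, but none called in every library. No region was found at Wnt1, Wnt10a, Fzd8 or Fzd10. These 4 genes are short, between 3.25 and 12.7 kb, and a missing peak shows only that tags did not pass the threshold of the peak caller, not that the DNA was unmethylated. The median was 3 regions per Wnt gene and 1.24 regions per 10 kb, against 2 per gene and 1.04 per 10 kb over all protein-coding genes.

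The regions lay mostly inside the long genes. The receptor genes Ror1 and Ror2, which are 349 and 177 kb long, held 37 and 29 regions, Tcf7l2 held 23 over 192 kb, and Wnt5b held 19 over 112 kb. Together these 4 genes held 108 of the 243 regions, or 44.4%. By position, 150 regions lay within introns, 59 overlapped an exon other than the last, 23 the last exon and 4 the exon of a single-exon gene, and 7 lay at the promoter window. Coding sequence was overlapped by 84 regions.

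**Figure D1:**
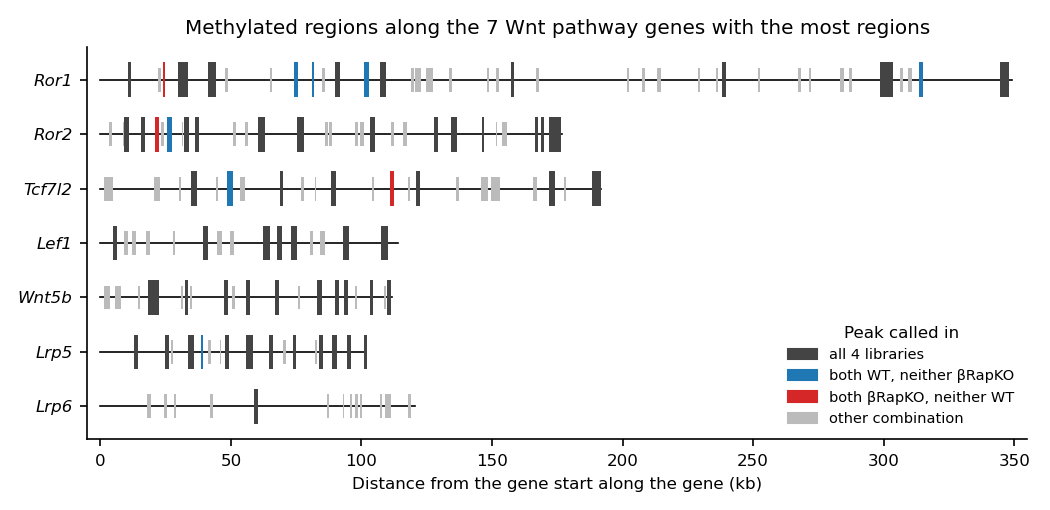
Each line is a gene body drawn to scale from its start, with distance from the gene start in kb on the x axis, and each block is a methylated region, coloured by the libraries in which its peak was called. In Lrp6, 1 of 14 regions was called in all 4 libraries, against 11 of 17 in Lrp5, and regions called in a single genotype sit among regions called in every library. WT replicate 1 had a peak at 3 of the Lrp6 regions and at 14 of the Lrp5 regions.

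Few of the genes carried a methylated region at their start. A region reached the promoter window in 7 of 41 Wnt genes, or 17.1%, against 25.0% of all protein-coding genes. The count depends on the start that is used. The same window at any transcript start of GENCODE's basic set gave 9 Wnt genes, and at the start of the principal transcript 6. The matching shares over all protein-coding genes were not computed. Of the 7 regions at annotated gene starts, only those at Fzd6 and Ctnnb1 were called in all 4 libraries. Fzd6, a Frizzled receptor linked to planar cell polarity, had its region at chr15:39004248-39005494, which ends 0.54 kb before the gene start and overlaps the gene Gm26704. Its CPM, the tags in peaks of the region per 1000000 tags of the library, was 2.23 and 1.69 in WT and 1.47 and 2.19 in βRapKO, so the genotypes overlapped.

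Ctnnb1, which encodes β-catenin, had its region at chr9:120927813-120931111, over the annotated gene start and the overlapping gene 4930593C16Rik. This start is an alternative one, and the region ends 2.29 kb before the start of the principal transcript. Its CPM was 5.47 and 4.92 in WT and 4.24 and 5.96 in βRapKO, and again the genotypes overlapped. The region holds 68 CpG sites, 2.06 per 100 bp, part of which are in the window shown above.

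The other 5 promoter regions were called in some libraries of both genotypes or in 1 library. Wnt8a was called in both WT libraries and βRapKO replicate 1, Dkk3 in both WT libraries and βRapKO replicate 2, Fzd1 in WT replicate 2 and βRapKO replicate 2, and Fzd2 in WT replicate 1 and βRapKO replicate 1. At Fzd9 the peak was found in a single library, WT replicate 1, and held 56 tags. No promoter region of a Wnt gene was called in both libraries of 1 genotype and neither of the other. The median CpG density of the promoter windows was 3.44 sites per 100 bp for the 7 genes with a region and 4.18 for the 34 without.

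Tags could be compared between genotypes at 97 of the 243 Wnt regions, those called in every library (39.9%, against 40.3% of all regions). With edgeR's quasi-likelihood test and Benjamini-Hochberg adjustment over all 75052 tested regions, none of the 97 passed an FDR under 0.05 with a fold change above 1.5, as 0% of all tested regions did. The smallest adjusted p was 0.849 at a Wnt region and 0.173 anywhere in the genome. At an unadjusted p under 0.05, 5 of the 97 were lower in βRapKO, or 5.15% against 3.93% of all tested regions, and 0 were higher, against 1.88%. They were 2 regions in Lrp5 and 1 each in Ror1, Axin2 and Tcf7l2, and are described with their genes. DESeq2 gave 0 regions under both criteria.

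In size, the differences were small, and their direction depended on the scaling. The median log2 fold change in βRapKO was −0.12 over the 97 Wnt regions and −0.06 over all tested regions, and single Wnt regions ranged from −0.72 to 0.50. Mean CPM was lower in βRapKO at 68 Wnt regions (70.1%, against 61.0% of all) and higher at 29 (29.9%, against 39.0%), a split that became 42 lower of 97 (43.3%, against 32.3% of all) when libraries were scaled to the tags in their peaks and 82 lower of 97 (84.5%, against 79.6%) per kb of peak. With TMM and with DESeq2, 60 of the 97 were lower (61.9%, against 49.5% and 49.8% of all), and the Wnt median was −0.06 while that of all tested regions was 0.0028 and 0.0014. With stricter peaks, those with a score of at least 100, 26 of 41 Wnt regions were lower (63.4%, against 64.1% of all). Without WT replicate 1, 57.7% were lower, against 57.3% of all. The shares were 70.1% against 60.6% without WT replicate 2 and 59.8% against 54.7% without βRapKO replicate 1. Without βRapKO replicate 2 they were 71.1% against 64.7%. Each βRapKO library was below each WT library at 27 regions (27.8%, against 25.3%) and above each at 8 (8.25%, against 11.6%). Past 1.5-fold, 2 regions were lower (2.06%, against 1.77%) and 0 higher (against 1.29%). The 2 became 5 without WT replicate 1, 3 without WT replicate 2, 4 without βRapKO replicate 1 and 11 without βRapKO replicate 2.

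**Figure D2:**
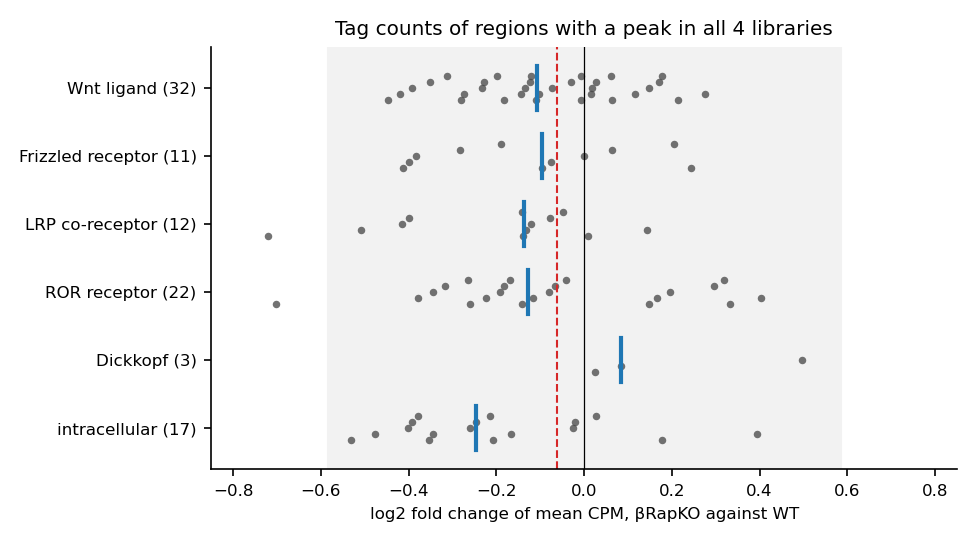
Each point is 1 of the 97 regions called in every library, placed by its log2 fold change of mean CPM in βRapKO against WT (x axis) and by the role of its gene (rows, with the number of regions). Blue bars are medians, from −0.25 for intracellular proteins to 0.08 for Dickkopf genes, the dashed line is the median of all tested regions, −0.06, and the grey band is 1.5-fold, which 2 points pass.

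The 19 Wnt ligands, the secreted lipid-modified proteins that start the signal, held 69 regions, of which 32 were called in all 4 libraries. CPM was lower in βRapKO at 21 of these and higher at 11 (61.0% lower over all tested regions). When libraries were scaled to the tags in their peaks, 11 were lower and 21 higher (32.3% lower over all). In Wnt3, a canonical ligand, the region with the most tags spanned exons 3 and 4 of 5 at chr11:103810716-103814460 and held 105 CpG sites. Its CPM was 12.9 and 10.2 in WT and 11.6 and 12.0 in βRapKO, with both βRapKO libraries between the WT libraries.

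Wnt5b, a ligand of the branch without β-catenin, had its leading region in intron 1 at chr6:119522088-119525938. Its CPM was 7.31 and 7.44 in WT and 6.37 and 6.48 in βRapKO. The genotypes did not overlap there, but the log2 fold change was −0.20 with an SE of 0.018 (edgeR adjusted p = 0.865), and it turned to 0.04 with stricter peaks. The region joined 2 peaks in each WT library and 1 in each βRapKO library. A cutoff per peak therefore need not keep the same bases in both genotypes. Here and below, the SE of a log2 fold change comes only from the spread of log2 CPM between libraries of the same genotype. With so few libraries it can be small because they happen to lie close together, so it is a description and not a test. In Wnt9a, the last exon, chr11:59330568-59334233, gave 9.58 and 6.29 in WT against 4.96 and 7.47 in βRapKO. The WT libraries there differed from each other by more than the genotype means did. In Wnt7b, exon 2, chr15:85558280-85560567, had the lowest log2 fold change of the leading ligand regions, −0.45, from 4.73 and 4.85 in WT and 2.29 and 4.73 in βRapKO. The lower mean there came from βRapKO replicate 1, and without it the log2 fold change was −0.02. In that library the called peak covered 1148 bp, against 2111 to 2195 bp in the others. Per kb of peak the log2 fold change was −0.13.

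The 10 Frizzled genes encode the receptors with a Wnt-binding domain outside the cell and 7 membrane spans. They held 18 regions, with a median of 2.04 CpG sites per 100 bp against 1.60 over all regions. Of the 11 called in all 4 libraries, 8 were lower and 3 higher in βRapKO (61.0% lower over all tested regions). Scaled to the tags in peaks, 5 were lower and 6 higher (32.3% lower over all). Several Frizzled genes have a single exon, and their regions were among the densest in CpG sites. Fzd7, at chr1:59483735-59485478, had 4.01 per 100 bp, the most of the 97 regions. Its CPM was 3.17 and 3.29 in WT and 3.01 and 3.74 in βRapKO, with no separation of the genotypes.

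In Fzd1, Fzd2 and Fzd9, which also consist of 1 exon, each βRapKO library was below each WT library. Fzd1, chr5:4754765-4756406, gave 3.17 and 3.45 in WT and 2.84 and 2.23 in βRapKO (log2 fold change −0.38, SE 0.19). Fzd2, chr11:102606666-102608007 in the 3′UTR, gave 2.03 and 1.98 in WT and 1.33 and 1.68 in βRapKO (log2 fold change −0.41, SE 0.17). The edgeR adjusted p was 0.858 for both. Fzd5, a receptor with its coding sequence in 1 exon, had the region with the most CpG sites of those named here, 164 at chr1:64730439-64736250. Its CPM was 10.4 and 16.1 in WT and 8.08 and 12.0 in βRapKO, and the genotypes overlapped.

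The co-receptors Lrp5 and Lrp6, large receptors that are phosphorylated when a Wnt protein joins them to Frizzled, held 17 and 14 regions. Lrp5 (ENSMUSG00000024913.16) is 102 kb long and Lrp6 120 kb, but 11 regions were called in all 4 libraries in Lrp5 and 1 in Lrp6. The low count in Lrp6 was limited by WT replicate 1, which had a peak at 3 of its regions. WT replicate 2 had peaks at 12 and βRapKO replicates 1 and 2 at 9 and 8. In Lrp5, WT replicate 1 had peaks at 14. Of the 12 regions called in all 4 libraries, 10 were lower and 2 higher in βRapKO (61.0% lower over all tested regions). Scaled to the tags in peaks, 4 were lower and 8 higher (32.3% lower over all). The lowest log2 fold change of all 97 regions was in Lrp5, over exon 3 of 23 at chr19:3650820-3652844, whose most CpG-rich stretch is printed above. Its CPM was 3.44 and 2.49 in WT and 1.51 and 2.09 in βRapKO, each βRapKO library below each WT library. The log2 fold change was −0.72 with an SE of 0.33 (edgeR adjusted p = 0.849). Per kb of peak it was −0.44, which is within 1.5-fold, and it was also within 1.5-fold without WT replicate 1 (−0.47) and without βRapKO replicate 1 (−0.50).

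Over exon 12 of Lrp5, at chr19:3611652-3612740, CPM was 2.58 and 2.78 in WT and 1.78 and 1.99 in βRapKO. The log2 fold change was −0.51, SE 0.096 (edgeR adjusted p = 0.849), and the genotypes did not overlap. In contrast, the Lrp5 region with the most tags, over exons 6 and 7 at chr19:3628268-3630771, gave 4.61 and 4.88 in WT and 4.21 and 4.97 in βRapKO. Regions of the same gene thus differed in size and in order, from separated to fully overlapping.

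Ror1 and Ror2, receptor tyrosine kinases that bind Wnt5a, held 66 regions, with fewer CpG sites per 100 bp (median 1.44) than the regions of the other roles. Of the 22 called in all 4 libraries, 15 were lower and 7 higher in βRapKO (61.0% lower over all tested regions). Scaled to the tags in peaks, 10 were lower and 12 higher (32.3% lower over all). The other region past 1.5-fold was in intron 1 of Ror1, at chr4:100202957-100205278. Its CPM was 3.44 and 4.31 in WT and 3.01 and 1.75 in βRapKO. The log2 fold change was −0.70 with an SE of 0.42 (edgeR adjusted p = 0.849), and −0.26 per kb of peak. The 2 βRapKO libraries lay below both WT libraries but differed from each other more than βRapKO replicate 1 did from WT replicate 1, and the log2 fold change was −0.36 without βRapKO replicate 2 and −0.53 without WT replicate 2, both within 1.5-fold.

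In Ror2, both orders occurred, with each βRapKO library below each WT library at 5 of its 13 regions called in every library and above each at 4 (25.3% and 11.6% over all tested regions). The leading region, over exons 8 and 9 of 9 at chr13:53109744-53114271, gave 11.9 and 9.06 in WT and 7.12 and 8.98 in βRapKO (log2 fold change −0.38, SE 0.26, edgeR adjusted p = 0.858). It was −0.17 without WT replicate 1, −0.22 without βRapKO replicate 1 and −0.56 without WT replicate 2. A region of intron 2 at chr13:53139026-53140151 gave 1.25 and 1.34 in WT and 1.81 and 1.61 in βRapKO (log2 fold change 0.40, edgeR adjusted p = 0.858). The higher value in βRapKO did not hold per kb of peak, where it was −0.18.

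The 4 Dickkopf genes encode secreted proteins, of which Dkk1, Dkk2 and Dkk4 bind the LRP co-receptors and modulate the signal. They held 13 regions, 3 of them called in all 4 libraries. All 3 had a higher mean CPM in βRapKO, against 39.0% of all tested regions. Per kb of peak, however, 2 of the 3 were lower, against 79.6% of all. Dkk4, a gene of 4 exons, had the highest log2 fold change of the 97 regions, 0.50 with an SE of 0.33, over its last exon at chr8:22626057-22627472 (edgeR adjusted p = 0.858). Its CPM was 1.25 and 1.37 in WT and 1.44 and 2.26 in βRapKO. βRapKO replicate 1 was close to the WT libraries, and without βRapKO replicate 2 the log2 fold change was 0.13. Per kb of peak it was 0.05 with all libraries. Dkk1 gave 1.76 and 1.98 in WT and 1.95 and 1.85 in βRapKO at chr19:30546932-30548258. Dkk3 held 6 regions, none of them called in every library.

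The intracellular members were Axin2, a scaffold of the β-catenin destruction complex and a target gene of the pathway, the transcription factors Tcf7l2 and Lef1, and Ctnnb1. They held 46 regions. Of the 17 called in all 4 libraries, 14 were lower and 3 higher in βRapKO, with a median log2 fold change of −0.25. Scaled to the tags in peaks, 12 were lower and 5 higher, with a median of −0.08. Over all tested regions, 61.0% and 32.3% were lower in these 2 scalings, with medians of −0.06 and 0.10. Each βRapKO library was below each WT library at 7 of the 17 and above each at 0 (25.3% and 11.6% over all tested regions).

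Axin2 (ENSMUSG00000000142.15) had the smallest p of the 97 regions, over intron 10 and the last of its 11 exons, with the 3′UTR, at chr11:108947501-108951136. Its CPM was 9.34 and 9.58 in WT and 5.30 and 7.78 in βRapKO. The WT libraries lay close together and both βRapKO libraries below them, with a log2 fold change of −0.53 and an SE of 0.28 (edgeR adjusted p = 0.849). Without βRapKO replicate 1 it was −0.28, and per kb of peak −0.20.

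In Tcf7l2 (ENSMUSG00000024985.19), a region of intron 4 at chr19:55862569-55864422 gave 5.55 and 6.58 in WT and 4.59 in both βRapKO libraries. The log2 fold change was −0.40 with an SE of 0.12 (edgeR adjusted p = 0.855), and −0.49 per kb of peak. The leading region of the gene, in intron 7 at chr19:55913612-55915937, gave 7.43 and 7.56 in WT and 6.78 and 6.20 in βRapKO, with no overlap and a log2 fold change of −0.21. The last exon of Tcf7l2, at chr19:55930274-55933378, had the highest density of the 97 regions, with a mean of 4.11 CPM per kb of peak in WT and 3.41 in βRapKO. In Lef1, the leading region, over exon 4 of 12 at chr3:131183475-131185949, gave 5.51 and 5.97 in WT and 4.07 and 5.83 in βRapKO, so that βRapKO replicate 2 lay among the WT values.

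**Figure D3:**
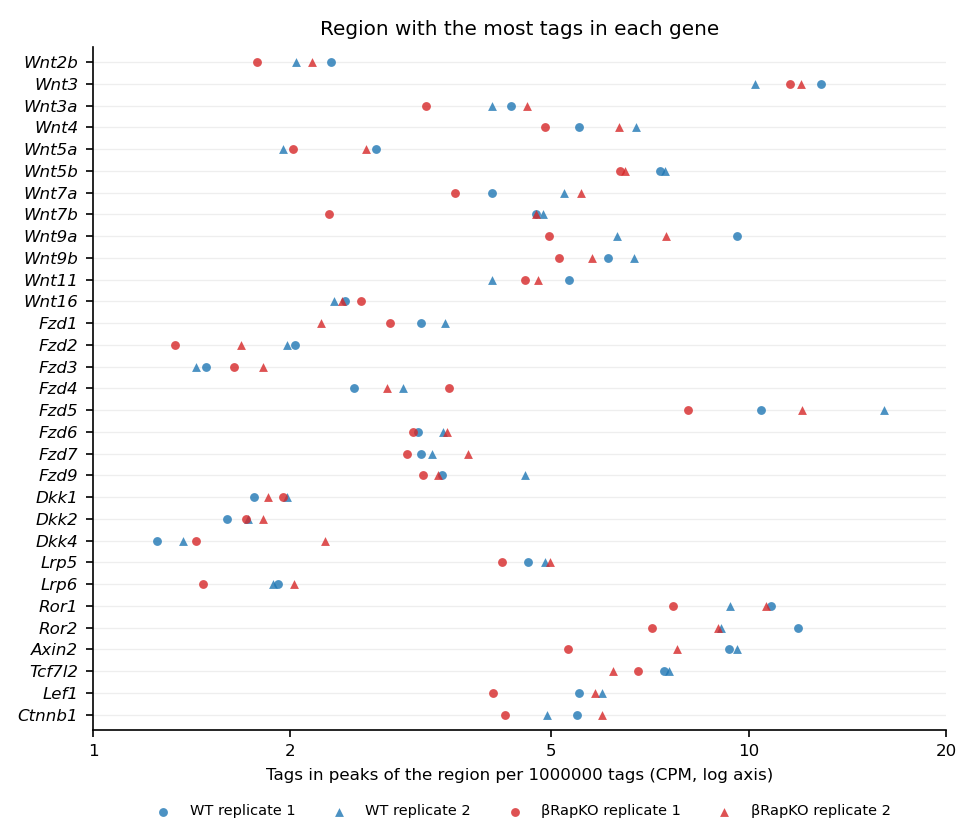
For each of the 31 Wnt genes with a region called in all 4 libraries, the region with the most tags is shown, with the CPM of each library on a logarithmic x axis (blue for WT, red for βRapKO, circles for replicate 1, triangles for replicate 2). The genotypes separate in some genes, such as Wnt5b (7.31 and 7.44 against 6.37 and 6.48), and interleave in most, such as Wnt3 (12.9 and 10.2 against 11.6 and 12.0).

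Per kb of called peak, the 97 regions had a median of 2.08 CPM in WT and 1.84 in βRapKO, with WT values from 1.35 to 4.11, beside 2.10 and 1.86 over all tested regions. Density followed the CpG content in part: across the 97 regions the rank correlation between CpG sites per 100 bp and WT CPM per kb was 0.45, a description, since the regions share libraries and the antibody itself responds to CpG density. Compared with all regions, the Wnt regions were a little wider (median 1308 against 1143 bp), contained less repeat sequence (14.8% against 24.4%) and had similar CpG content (1.75 against 1.60 per 100 bp). These differences were not tested.

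Beyond tag counts, a region could be called in the libraries of 1 genotype and not in the other. Of the 243 Wnt regions, 10 were called in both WT and neither βRapKO library (4.12%, against 4.16% of all regions), and 3 in both βRapKO and neither WT library (1.23%, against 1.58%). Both shares were near those of the whole genome. Combinations that cross the genotypes also occurred, with 12 regions called in WT replicate 2 and βRapKO replicate 2 alone (4.94%, against 4.17%) and 10 in WT replicate 2 and βRapKO replicate 1 (4.12%, against 3.52%). Pairs with WT replicate 1 gave 6 regions with βRapKO replicate 1 (2.47%, against 1.63%) and 1 with βRapKO replicate 2 (0.412%, against 1.57%). The peaks of WT replicate 2, the deepest library, marked 201 of the 243 regions (82.7%, against 78.9% of all). WT replicate 1 marked 158 (65.0%, against 64.0%) and the βRapKO libraries 150 and 147 (61.7% and 60.5%, against 62.3% and 63.6%). The part of depth in these calls was not tested.

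**Figure D4:**
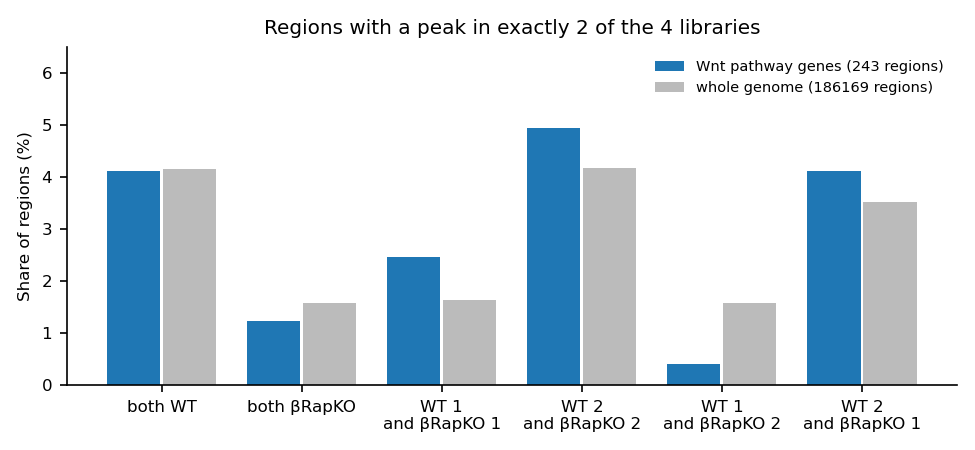
The bars give the share, in percent, of regions with a peak in exactly 2 of the 4 libraries, by pair of libraries, for the 243 regions of Wnt pathway genes (blue) and all 186169 regions (grey). Pairs of the same genotype took 4.12% and 1.23% of Wnt regions, and the pairs that cross the genotypes and include WT replicate 2 took 4.94% and 4.12%.

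The 10 regions called in WT only lay in 7 genes, 4 of them in Ror1. In Ror1 they were in intron 1 at chr4:100169926-100171587 (47 and 80 tags in WT replicates 1 and 2), chr4:100176821-100177566 (29 and 37) and chr4:100196594-100198761 (101 and 107), and at exon 6, chr4:100409457-100410679 (41 and 48). The CpG content of these 4 ranged widely, and chr4:100176821-100177566 held a single CG dinucleotide in the reference. Tcf7l2 had 125 and 118 tags in intron 3 at chr19:55790151-55792540, the region of the window shown above, and Wnt2b had 140 and 90 tags over exons 2 and 3 at chr3:104952481-104955425. These were well above the lowest count in any called Wnt region, 24 tags.

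Ror2 had 75 and 83 tags in intron 1 at chr13:53258520-53260704, and Lrp5 had 45 and 51 over exon 5 at chr19:3647174-3648067. Wnt5a, the main ligand of the ROR receptors, had 32 and 55 tags over its last exon at chr14:28522081-28523228, and Wnt7a had 26 and 26 in intron 3 at chr6:91381363-91381991. The 3 regions called in βRapKO only lay in Ror1, Ror2 and Tcf7l2, genes that also held WT-only regions. Ror2 had 62 and 71 tags in intron 1 at chr13:53263854-53265176, closer to the gene start than its WT-only region. Tcf7l2 had 59 and 53 tags in intron 4 at chr19:55852829-55854176, and Ror1 had 40 and 38 in intron 1 at chr4:100119668-100120636. All 13 regions lay inside the gene bodies, 9 of them within introns.

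For the rest of the pathway, 62 further genes were examined, among them the Wnt secretion factor Wls, the Dishevelled proteins, the destruction complex, the R-spondins with their receptors, and the secreted inhibitors of the Sfrp family. These genes too were chosen with earlier results of these data known. Regions were found at 58 of them, and 20 had one in the promoter window, against 77.7% and 25.0% of all protein-coding genes. Of their 401 regions, 152 were called in all 4 libraries, with 109 lower and 43 higher in βRapKO (61.0% and 39.0% over all tested regions) and a median log2 fold change of −0.14. None passed the FDR with edgeR's quasi-likelihood test, the smallest adjusted p being 0.584, while 16 of the 152 were lower and 1 higher at an unadjusted p under 0.05, against 3.93% and 1.88% of all tested regions. Each βRapKO library was below each WT library at 57 of the 152 (37.5%) and above each at 5 (3.29%). Over all tested regions these shares were 25.3% and 11.6%. Per kb of peak, the median log2 fold change of the 152 regions was −0.19, against −0.17 over all tested regions. The counts for these genes, here and below, were not repeated with TMM, DESeq2, tags in peaks or a library left out. The median per kb of peak lay closer to that of all tested regions than the median from CPM did. Beyond this, whether the excess of lower regions depends on the scaling was not tested.

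Past 1.5-fold, 5 of these 152 regions were lower and 0 higher, against 1.77% and 1.29% of all tested regions. Ryk, a Wnt receptor with an inactive kinase domain, had 4.81 and 5.14 CPM in WT and 3.18 and 3.19 in βRapKO in intron 13 at chr9:102902595-102904307, with each genotype's libraries close together. Its log2 fold change was −0.64 with an SE of 0.048 (edgeR adjusted p = 0.584). Rnf43, a ubiquitin ligase that removes Frizzled receptors from the membrane, had a log2 fold change of −0.72, from 3.83 and 5.55 CPM in WT and 2.22 and 3.46 in βRapKO. The regions in Celsr1, a cadherin of planar cell polarity (−0.72), in the repressor Tcf7l1 (−0.59) and in the co-repressor Tle1 (−0.63) were the others, and in Tle1 the genotypes overlapped.

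In these 62 genes, 24 regions (5.99%) were called in WT only and 7 (1.75%) in βRapKO only, against 4.16% and 1.58% of all regions. The WT-only regions lay in 22 genes, which were Apc, Apc2, Bcl9l, Celsr1, Celsr3, Cer1, Ctnnbip1, Dact3, Dvl2, Dvl3, Gsk3b, Kremen1, Lgr5, Nkd1, Prickle1, Prickle2, Rspo4, Tcf7, Tcf7l1, Tle3, Tle4 and Vangl1. The βRapKO-only regions lay in Apc, Bcl9, Celsr1, Rspo4 and Znrf3. Apc, a scaffold of the destruction complex, Celsr1 and the R-spondin gene Rspo4 thus held regions of both kinds, as Ror1, Ror2 and Tcf7l2 did.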

How the data were processed

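MeDIP-seq was measured in islets of 2 WT and 2 βRapKO libraries. The authors aligned reads to mm10 (Bowtie2 2.2.5) and called peaks per library with MACS, version 1.4.2 in the file headers and 0.14.2 in the submitters' processing notes, with no input library, at p under 1e-05, keeping 1 tag at each position and estimating background over 10000 bp. The authors deposited a raw tag count per peak. Each deposited peak also carries a score, the −log10 of p multiplied by 10, and a fold enrichment over background, as the authors' caller gave it, which was not used here. Wide peaks hold more tags, and where a library has no peak its count is unknown. Without an input library, a peak can also mark repeats or other places of high coverage.

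Overlapping peaks (at least 1 bp) of different libraries were joined on autosomes, X and Y, and tags of a library were added per region. CPM is per 1000000 non-duplicate tags of the library. Regions called in every library were tested together, over the whole genome, by the quasi-likelihood test of edgeR (version 4.0.16, in R 4.3.3). A call needed a Benjamini-Hochberg FDR under 0.05 together with a difference above 1.5-fold. Simulated data were used to check the script. Libraries of 1 genotype differed by more than sampling noise (chi-square per region 2.29 in WT, 2.35 in βRapKO). The precision of a count is limited by this spread, so no counting intervals are given. Genes came from GENCODE M21 on GRCm38, with exons numbered along 1 principal transcript, and sequences and CpG sites from the GRCm38 reference (Python 3.11.15, pandas 2.3.3, pysam 0.24.0). Groups came from the sample labels.

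The regions named were the region with the most tags per gene, those past 1.5-fold, those called in 1 genotype only, those with an unadjusted p under 0.05, and those at promoters. Those with an unadjusted p under 0.05, the Ror2 region of intron 2 and the last exon of Tcf7l2 were chosen after their values were seen. The members, the 62 pathway genes and the lists were chosen with earlier results of these data known. The alternatives were TMM, the tags in peaks as library size, DESeq2 1.42.0, tags per kb of peak, at least 50 tags per library, peaks with a score of at least 100, an overlap of 50% of the shorter peak, a 2-fold threshold, other gene windows, a replicate block, removal of each library, and, chosen after seeing the data, the same number of highest-scoring peaks from each library.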

Additional observations from a re-analysis of the deposited data

How the results depend on the processing

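No Wnt region passed the FDR in either direction in the fits with TMM, tags in peaks, DESeq2, tags per kb, at least 50 tags, stricter peaks, an overlap of 50% or the replicate block, or without any 1 library. Counts at an unadjusted p under 0.05 and past 1.5-fold rest on few regions. Regions lower at an unadjusted p under 0.05 (5 as reported) numbered 3 with TMM, 0 with tags in peaks as library size, 0 with DESeq2, 12 per kb of peak and 2 to 12 when each library was left out (2 without WT replicate 2, 3 without βRapKO replicate 1 and 12 without βRapKO replicate 2). Those higher (0 as reported) numbered 1 with TMM, 3 with tags in peaks, 1 with stricter peaks and 0 to 1 without each library. Regions past 1.5-fold and lower (2 as reported) numbered 0 with tags in peaks, per kb of peak, with stricter peaks and at a 2-fold threshold, 1 with at least 50 tags per library, and 3 to 11 without each library. Those higher (0 as reported) numbered 1 with tags in peaks and with stricter peaks, and 0 to 3 without each library. The median log2 fold change (−0.12) was 0.04 with tags in peaks, where the median of all tested regions moved from −0.06 to 0.10, and −0.19 to −0.06 without each library (−0.06 without WT replicate 1 and without βRapKO replicate 1, −0.19 without βRapKO replicate 2). Over all tested regions the median was −0.05 without WT replicate 1, −0.03 without βRapKO replicate 1 and −0.10 without βRapKO replicate 2. The cause was not tested.

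The replicate numbers occur in both genotypes, and deviations of same-numbered libraries had a correlation of 0.05 across regions. The labels do not say that same-numbered libraries were prepared together, and this correlation cannot decide it. With the replicate block 6 regions were lower at an unadjusted p under 0.05 and 0 passed the FDR (smallest adjusted p 0.622), and Wnt11 and Wnt5a turned to 0.0042 and 0.0077. The counts of regions called in 1 genotype only, 10 and 3, were 7 and 4 with 117638 peaks per library, an alternative chosen after seeing the data, and 8 and 2 with stricter peaks.

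Of 328 alternative log2 fold changes of 34 regions, 58 had the other sign, in 19 regions. With tags in peaks these were Ror1 0.0063 (chr4:100394415-100399547), Wnt2b 0.0089, Lrp6 0.032, Wnt4 0.038, Fzd6 0.045 at the promoter and 0.16 in exon 4, Wnt3a 0.047, Lrp5 0.11, Ctnnb1 0.12, Wnt7a 0.13, Wnt5a 0.14 and Wnt11 0.14. With TMM they were Lrp5 0.012, Wnt7a 0.026, Ctnnb1 0.034, Wnt5a 0.055, Wnt11 0.057 and Fzd6 0.062, and with DESeq2 Lrp5 0.011, Wnt7a 0.024, Ctnnb1 0.032, Wnt5a 0.054, Wnt11 0.055 and Fzd6 0.060. Per kb of peak they were Dkk1 −0.075, Dkk2 −0.17, Wnt16 −0.18, Fzd7 −0.30, Wnt3 −0.32 and Wnt5a 0.046. With stricter peaks they were Wnt5b 0.037, Ctnnb1 0.27 and Lrp5 0.76. The Wnt5b and Lrp5 regions joined 2 peaks in each WT library and 1 in each βRapKO library. In Ctnnb1 only WT replicate 2 had 2 peaks. A cutoff per peak need not keep the same bases in every library there. Leaving out each library gave ranges that crossed 0 for Wnt3 (−0.13 to 0.21), Wnt3a (−0.38 to 0.13), Wnt4 (−0.32 to 0.051), Wnt5a (−0.22 to 0.25), Wnt7a (−0.39 to 0.26), Wnt11 (−0.19 to 0.20), Fzd6 (−0.41 to 0.16 at the promoter, −0.087 to 0.082 in exon 4), Fzd7 (−0.10 to 0.21), Dkk1 (−0.058 to 0.11), Lrp5 (−0.17 to 0.066), Lrp6 (−0.37 to 0.091), Ror1 (−0.40 to 0.075), Lef1 (−0.50 to 0.022) and Ctnnb1 (−0.29 to 0.20).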
